A study of Rattus norvegicus with 58 samples.

Results

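Scd, Fasn, Acaca and Acly encode the enzymes of fatty acid synthesis, and Srebf1 encodes the transcription factor that drives their genes. They were followed as 5 genes of 16879 with an identifier in a table of synovial RNA from 58 rat libraries, and all 5 were found by identifier (Scd ENSRNOG00000013552, Fasn ENSRNOG00000045636, Acaca ENSRNOG00000034013, Acly ENSRNOG00000016924, Srebf1 ENSRNOG00000003463). The genes were selected on their fitted differences between untreated arthritis and naive synovium, with results of the other groups known, so the values of that comparison are given as a description. In untreated arthritis Scd stood on average at 0.0896% of its naive mean, Fasn, Acaca and Srebf1 at between 12.0% and 18.4%, and Acly at 69.2%. Scd stayed below 2% of the naive mean in 39 of the 44 arthritic libraries, and the other 5 held between 3.16% and 28.8% of it.

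Fatty acids are built in the cytosol from citrate. ATP citrate lyase (Acly) splits citrate to acetyl-CoA, acetyl-CoA carboxylase alpha (Acaca) turns that into malonyl-CoA, and fatty acid synthase (Fasn) joins the units into palmitate. Stearoyl-CoA desaturase (Scd) then puts a double bond into the saturated chains, which can be stored as triglyceride, and fat tissue is a well-known site of the pathway. Sterol regulatory element binding protein 1 (Srebf1) is a membrane-bound precursor whose released part enters the nucleus and activates lipogenic genes. Its gene has more than one start site.

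Synovial tissue came from female DA/OlaHsd rats. Arthritis was induced at 6 to 8 weeks of age with 250 µl of pristane, a hydrocarbon oil that sets off joint inflammation (pristane-induced arthritis, PIA), and treatment began once both rear limbs had reached a set score. Untreated PIA gave 4 libraries. The saline arm of PIA gave 4 libraries on day 1 and 8 on each of days 3 and 5, and the RTD-1 arm gave the same numbers. RTD-1, a cyclic defensin peptide, was injected under the skin at 5 mg/kg in saline. The healthy side comprised 4 naive libraries and 5 libraries each from healthy rats at day 3 and day 5 of RTD-1, and healthy saline rats were not analysed here. Reads in genes numbered 464693 to 7716834 per library, and the 10 healthy RTD-1 libraries and 3 saline libraries (day 1 replicate 2, day 3 replicate 4, day 5 replicate 1) were the deeper ones. The shallowest were replicates 6 and 8 of RTD-1 day 3. Levels are given as normalized reads, which are reads rescaled to a library of median depth. They are not divided by gene length, so levels are compared within a gene only. The labels do not state which animal gave which library, so the tests measure the spread between libraries. Because this is bulk tissue, fewer cells of a type and less RNA per cell cannot be told apart. The markers of fat, muscle, leukocyte and synovial cells could not be matched to identifiers and were not analysed here, so the tissue label was not checked against markers.

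Promoter windows are shown for the members with an entry, which include Scd, the gene with the lowest level relative to naive, and Acly, the one with the highest. RefSeq (GRCr8) gave such a window for Scd, Acly and Srebf1, which has 2 start sites, and none for Fasn and Acaca. Each window runs from 250 bases before to 50 after the start site, 5′ to 3′ on the minus strand of the chromosome. Capitals mark matches on either strand to the CCAAT box, to the GC box core GGGCGG, to the E-box CACGTG or to the sterol regulatory element TCACNCCAC, where N is any base.
Scd, chr1:253231682-253231981: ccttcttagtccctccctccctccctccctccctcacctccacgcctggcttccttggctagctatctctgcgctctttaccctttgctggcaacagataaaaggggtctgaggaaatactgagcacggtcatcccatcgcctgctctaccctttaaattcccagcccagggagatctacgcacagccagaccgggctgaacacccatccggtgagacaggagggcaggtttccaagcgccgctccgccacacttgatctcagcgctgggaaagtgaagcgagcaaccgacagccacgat
Acly, chr10:85963582-85963881: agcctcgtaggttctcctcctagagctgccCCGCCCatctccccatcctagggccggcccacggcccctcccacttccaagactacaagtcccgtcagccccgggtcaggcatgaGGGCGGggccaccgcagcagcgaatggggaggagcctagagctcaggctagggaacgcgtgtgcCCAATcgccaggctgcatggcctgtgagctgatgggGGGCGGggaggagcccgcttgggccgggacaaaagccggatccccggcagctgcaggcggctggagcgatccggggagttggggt
Srebf1, chr10:45529115-45529414: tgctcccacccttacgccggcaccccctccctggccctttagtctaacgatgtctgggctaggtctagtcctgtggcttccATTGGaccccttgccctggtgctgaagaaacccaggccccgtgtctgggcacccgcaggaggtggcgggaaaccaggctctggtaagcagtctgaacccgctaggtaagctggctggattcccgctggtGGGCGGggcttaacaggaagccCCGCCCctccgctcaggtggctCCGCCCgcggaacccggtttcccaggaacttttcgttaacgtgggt
Srebf1, chr10:45518961-45519260: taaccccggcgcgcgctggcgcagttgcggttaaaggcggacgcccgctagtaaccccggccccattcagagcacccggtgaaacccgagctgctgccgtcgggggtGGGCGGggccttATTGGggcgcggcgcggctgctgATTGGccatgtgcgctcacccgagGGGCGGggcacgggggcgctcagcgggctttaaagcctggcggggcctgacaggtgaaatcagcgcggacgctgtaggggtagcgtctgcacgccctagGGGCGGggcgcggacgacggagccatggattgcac
The Scd window held 0 matches to the 4 motifs. The Acly window held 1 CCAAT and 3 GGGCGG, the Srebf1 window at the first of the coordinates 1 CCAAT and 3 GGGCGG, and the other Srebf1 window 2 CCAAT and 3 GGGCGG. Among 33469 rat promoter windows of the same length, 37.5% held the CCAAT box, 33.1% the GC box core, 6.42% the E-box and 1.12% the sterol regulatory element. The GC content was 58.3% in the Scd window and 69% in the Acly window, against a median of 51.7% over all windows. A match describes the letters only, and a site outside the window would not be seen.

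In naive synovium Scd stood at 24407.5, 28175.2, 33130.3 and 18640.6 normalized reads in the 4 libraries, which was 1.35% ± 0.186 (SD, n = 4) of all reads in genes. In untreated PIA the same gene stood at 15.8, 15.9, 16.7 and 45.1 normalized reads, from 14, 16, 15 and 47 reads. The untreated libraries therefore held 0.0896% ± 0.0555 (SD, n = 4) of the naive mean, and the ranges lay far apart. The fitted difference in log2(normalized reads + 1), the scale of all differences below, was -10.18 for Scd. None of the 13062 genes tested had a lower difference.

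The enzymes before Scd in the pathway fell less. Fasn stood at 5624.8, 4303.8, 1943.4 and 2024.6 normalized reads in naive synovium and at 414.8, 394.6, 357.7 and 498.7 in untreated PIA. Acaca stood at 843.5, 743.6, 625.5 and 421.8 in naive synovium and at 124.0, 130.2, 96.9 and 132.4 in untreated PIA. For both enzymes every untreated PIA library was below every naive library, and Fasn varied most among the naive libraries, 2.89-fold from the lowest to the highest. Acly, which opens the pathway, stood at 470.2, 489.0, 506.8 and 306.2 normalized reads in naive synovium and at 359.6, 289.3, 220.6 and 357.7 in untreated PIA. Its groups overlapped in normalized reads, because naive replicate 4 lay below 2 of the untreated PIA libraries. As a share of all reads in genes they did not overlap. That share of Acly ran from 0.0187% to 0.0275% in naive synovium and from 0.00947% to 0.0154% in untreated PIA. The regulator Srebf1 stood at 831.1, 982.8, 851.0 and 509.3 in naive synovium and at 179.2, 112.3, 99.2 and 124.7 in untreated PIA, with no overlap. The log2 differences were -2.91 for Fasn, -2.40 for Acaca, -0.53 for Acly and -2.61 for Srebf1, while the median gene stood at 0.28. With TMM factors, which set the median gene at -0.00, the Acly difference was -0.82. In normalized reads the 4 genes other than Acly had groups that did not overlap, beside 10.5% of all genes lower in untreated PIA. Nothing is read from that count because this contrast chose the genes.

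**Figure D1:**
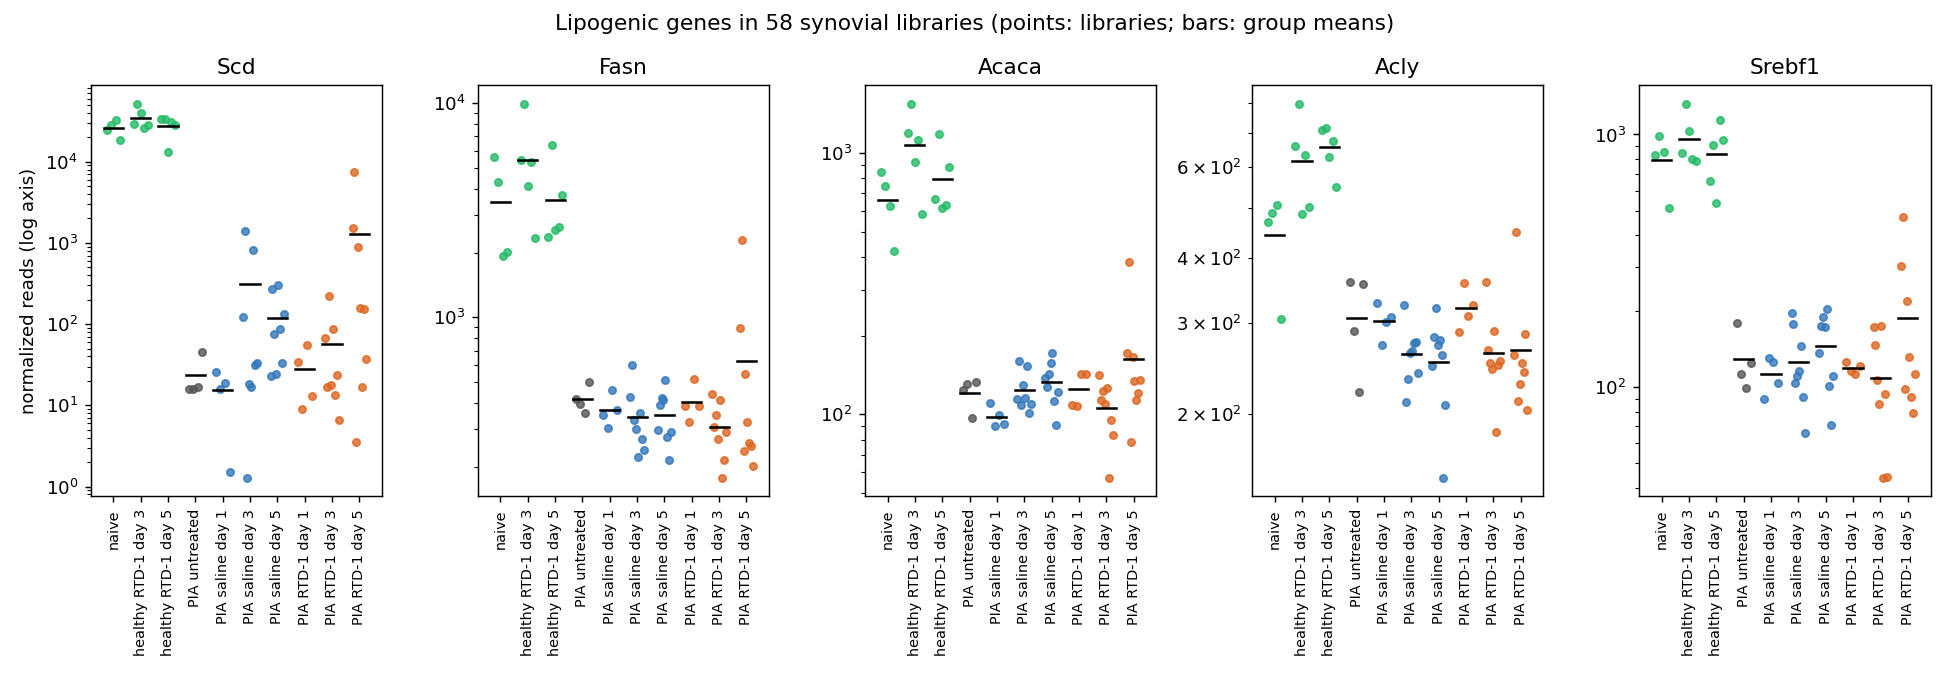
Normalized reads (log axis) of the 5 genes in each of 58 libraries, by group, with points for libraries and bars for group means. Healthy groups are green, untreated PIA grey, saline blue and RTD-1 orange, and PIA RTD-1 day 5 replicate 2 is the highest arthritic point in all 5 panels.

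Over all 10 groups the order of the group means was the same at the top for Scd, Fasn, Acaca and Srebf1, namely healthy RTD-1 day 3, healthy RTD-1 day 5 and naive. Neighbours in that order overlapped in every case. The step from naive to the highest arthritic group, PIA RTD-1 day 5, was the only one without overlap for Scd, Acaca and Srebf1. For Fasn and Acly no neighbouring groups lay apart. Acly had its highest arthritic mean in PIA RTD-1 day 1, at 320.4 ± 29.6 normalized reads (SD, n = 4), and its lowest in PIA saline day 5, at 252.6 ± 52.0 (SD, n = 8).

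Pooled by health, the lowest of the 14 healthy libraries held 13149 normalized reads of Scd and the highest of the 44 arthritic libraries 7510, so the 2 sets did not overlap. Acaca (421.8 against 381.3) and Srebf1 (509.3 against 471.1) also kept the sets apart, by narrower gaps. Such a separation, with arthritic libraries lower, was seen for 2.25% of all genes, and for Scd, Acaca and Srebf1 it includes the libraries that chose them. For Fasn 1 arthritic library lay above the lowest healthy one in normalized reads, and for Acly 11 did. As a share of reads in genes, Acly was at least 0.0187% in every healthy library. It reached 0.0224% in PIA RTD-1 day 5 and at most 0.0154% in any other arthritic group.

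Scd was also compared between arthritic and healthy rats that had all received RTD-1. These libraries are not those of the contrast that chose the genes, but their results were known when the genes were chosen, so the p-values are not independent of the choice. On day 3 Scd ranged from 6.6 to 223.2 normalized reads in PIA (median 20.8, n = 8) and stood at 28863.3, 51966.9, 39926.5, 26232.2 and 28094.9 in the healthy libraries. The difference was -10.02 (SE 1.17, limma adjusted p = 8.98e-10). On day 5 the PIA libraries ranged from 3.5 to 7510 (median 154.4, n = 8) and the healthy ones stood at 33861.2, 33258.0, 13148.6, 31097.3 and 28328.0. The difference was -7.27 (SE 1.17, limma adjusted p = 1.99e-06), and no PIA library reached the lowest healthy one on either day. The fit uses 1 spread for both groups, while the log2 SD on day 5 was 3.55 in PIA and 0.574 in healthy libraries. Among the settings other than leaving out 1 library, the largest limma adjusted p of Scd on day 5 was 0.003065.

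The other 4 genes were lower in PIA on both days too. On day 3 Fasn was lower by a log2 difference of -4.04 (SE 0.365), Acaca by -3.30 (SE 0.221), Srebf1 by -3.27 (SE 0.323) and Acly by -1.22 (SE 0.160), with limma adjusted p-values of 5.58e-13, 1.82e-18, 5.33e-12 and 5.24e-09. On day 5 the differences were -2.94 for Fasn, -2.38 for Acaca, -2.38 for Srebf1 and -1.33 for Acly, with limma adjusted p-values of 7.41e-09, 5.64e-13, 4.88e-08 and 1.17e-09. On each day 5 of 5 genes were called lower, where 30.6% of all genes were called lower on day 3 and 33.6% on day 5. The ranges of the 5 genes did not overlap on either day, a separation that 16.2% of genes showed on day 3 and 18.7% on day 5. Nothing is read from these counts, because the results of these groups were known when the genes were chosen. The median gene differed by -0.20 on day 3 and -0.32 on day 5, and by -0.06 and -0.04 with TMM factors. All the healthy RTD-1 libraries were deeper than the PIA RTD-1 libraries, and the part of depth was not tested. Only 1 gene had a lower difference than Scd on day 5, and 0 did on day 3.

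Scd fell further than each of the other 4 genes within the same libraries. The log2 value of Scd minus that of Fasn was 2.79 ± 0.595 (SD, n = 5) in healthy RTD-1 day 3 libraries and -3.19 ± 1.38 (SD, n = 8) in PIA RTD-1 day 3 libraries, a shift of -5.98. The shift was -6.72 against Acaca, -8.80 against Acly and -6.75 against Srebf1. For each of these 4, a two-sided exact permutation test over 1287 assignments of libraries gave p = 0.000777, the smallest it can give, and 0.00155 after adjustment over 8 tests. On day 5 the shifts were -4.33 against Fasn, -4.88 against Acaca, -5.94 against Acly and -4.89 against Srebf1, each with p = 0.00466 by the exact permutation test, raw and adjusted. These tests were added after the data were seen, when Scd was already known to have the largest fall in these same libraries. Their p-values are therefore not independent of the choice of Scd, and they are no separate evidence that Scd fell furthest.

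**Figure D2:**
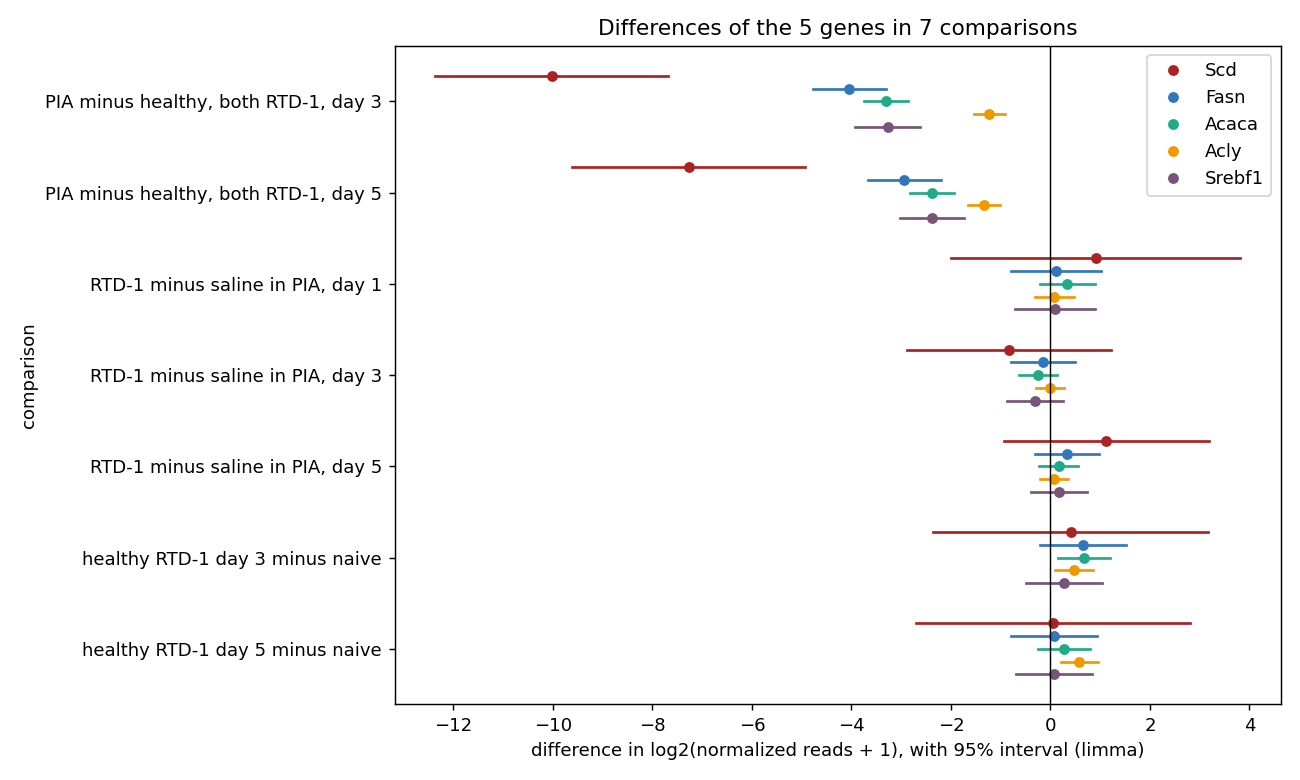
Differences in log2(normalized reads + 1) of the 5 genes in 7 comparisons, with points for the limma estimates and lines for 95% intervals. The intervals of PIA against healthy rats, both given RTD-1, lie below 0 for every gene on both days, and the intervals of RTD-1 against saline cross 0 for every gene on all 3 days.

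Levels of Scd were followed from untreated PIA through both arms. After 1 day of saline Scd stood at 25.4, 15.9, 18.9 and 1.5 normalized reads in replicates 1 to 4, the last of these from 1 read. After 1 day of RTD-1 it stood at 34.2, 9.0, 55.1 and 13.0. Both sets lay around the untreated level, and 1 of the 4 RTD-1 libraries and 0 of the 4 saline libraries exceeded the highest untreated library. On day 3 Scd ranged from 1.3 to 1416.9 in saline (median 32.3, n = 8) and from 6.6 to 223.2 in RTD-1 (median 20.8, n = 8), and 3 of 8 libraries in each arm exceeded the highest untreated one. On day 5 it ranged from 22.9 to 301.5 in saline (median 80.8, n = 8) and from 3.5 to 7510 in RTD-1 (median 154.4, n = 8), and 5 of 8 in each arm exceeded it. The RTD-1 libraries of day 5 thus held both a library with 3 reads of Scd and the highest arthritic level of the series.

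A few libraries set the group means. The Scd mean of PIA RTD-1 day 5 was 1286 normalized reads, or 4.93% of the naive mean, and 397.1 without replicate 2. The mean of PIA saline day 3 was 308.2, and 149.8 without replicate 2. The mean of PIA RTD-1 day 3 was 57.0, and 33.3 without replicate 3. For Fasn the mean of PIA RTD-1 day 5 was 626.0 ± 715 (SD, n = 8), and 386.7 without replicate 2, which is below the untreated mean of 416.5.

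**Figure D3:**
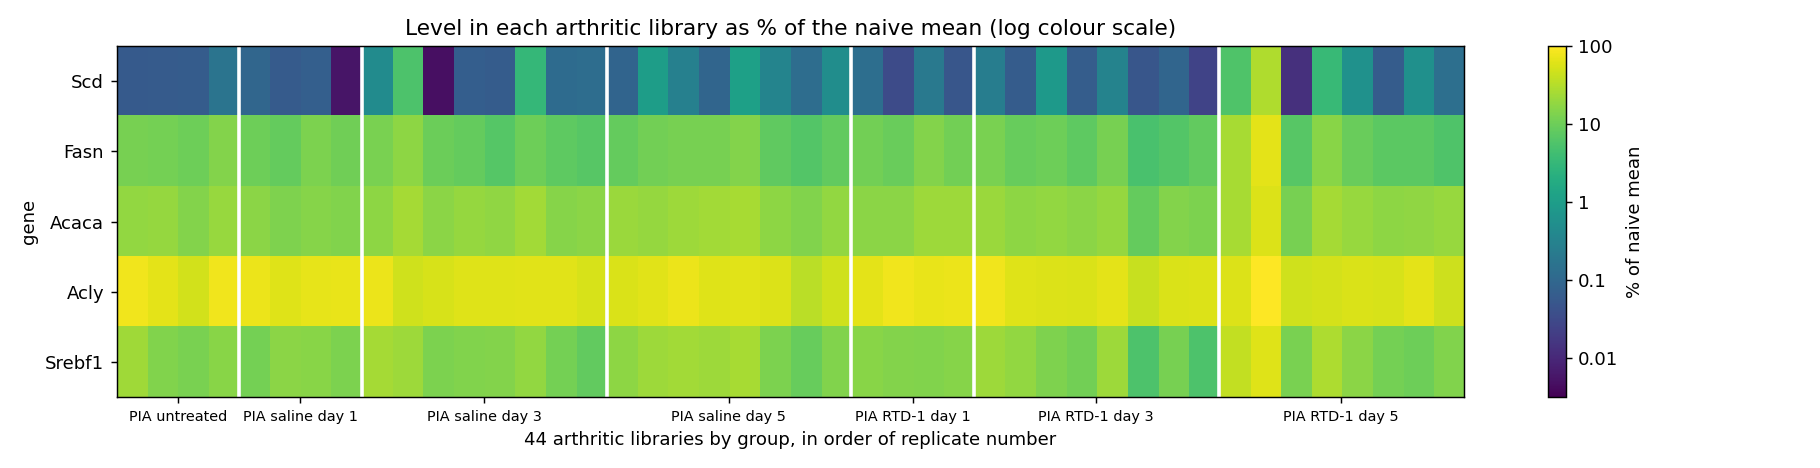
Level of each of the 5 genes in the 44 arthritic libraries as a percentage of the naive mean (log colour scale), with white lines between groups and replicate numbers rising from left to right within a group. Scd is below 1% of the naive mean in most columns, and the bright column of all 5 genes in PIA RTD-1 day 5 is replicate 2.

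PIA RTD-1 day 5 replicate 2 held the highest arthritic level of every one of the 5 genes. There Scd stood at 28.8% of the naive mean, Fasn at 66.2%, Acaca at 57.9%, Acly at 101.7% and Srebf1 at 59.4%. Replicate 1 of the same group came next for Scd (5.87% of the naive mean), Fasn (25.6%) and Srebf1 (37.9%), and replicate 4 held 3.38% for Scd, 15.6% for Fasn, 25.2% for Acaca and 27.7% for Srebf1. High levels were not confined to RTD-1: PIA saline day 3 replicate 2 held 5.43% for Scd and 17.2% for Fasn, and PIA saline day 5 replicate 5 held 26.0% for Acaca, each above RTD-1 day 5 replicate 4. Within saline day 3 replicate 2, Acly stood at 47.6% of the naive mean, the lowest of its group. In replicates 3 and 6 of PIA RTD-1 day 5, Scd stood at 0.0135% and 0.0652% of the naive mean and Fasn at 6.88% and 7.42%.

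RTD-1 was then compared with saline in arthritic rats on each day. On day 5 the Scd difference was 1.12 (SE 1.02, 95% interval -0.93 to 3.18) and that of Fasn 0.33 (interval -0.31 to 0.97). The remaining differences were 0.17 for Acaca (interval -0.22 to 0.55), 0.07 for Acly (interval -0.21 to 0.35) and 0.17 for Srebf1 (interval -0.40 to 0.74). All 5 had a limma adjusted p of 0.998, so no gene of the 5 passed the test, beside 0.00% of all genes. Without replicate 2 of the RTD-1 arm the differences were 0.34 for Scd, -0.01 for Fasn, -0.03 for Acaca, -0.05 for Acly and -0.05 for Srebf1. The interval for Scd includes values from a fall to a rise of 3.18 on the log2 scale. It rests on 1 estimate of the spread per gene over all 10 groups. The log2 SD of Scd was 3.55 in RTD-1 day 5 and 1.45 in saline day 5, so the interval does not follow the spread of these arms.

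On day 3 the differences were -0.83 for Scd (SE 1.02, interval -2.89 to 1.22), -0.14 for Fasn, -0.25 for Acaca, -0.00 for Acly and -0.31 for Srebf1. None passed the test (limma adjusted p = 0.890 for Scd), beside 0.00766% of all genes, which is 1 gene. The Scd value was -0.18 without saline replicate 2 and -0.29 without saline replicate 6, the pair of day 3 libraries with the most Scd. On day 1 the differences were 0.91 for Scd (SE 1.45), 0.11 for Fasn, 0.34 for Acaca, 0.08 for Acly and 0.09 for Srebf1. None passed the test (limma adjusted p = 0.938 for Scd), beside 0.00% of all genes. The Scd value was 0.15 without saline replicate 4, the library with 1 read. Over the mean of the 3 days the differences ran from -0.01 for Srebf1 to 0.40 for Scd, and none passed (0.00% of all genes).

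At an unadjusted p under 0.05, limma gave 612 genes on day 1, 1010 on day 3, 470 on day 5 and 760 over the mean of days, and limma voom on the recovered reads called 0 after adjustment on each day and over the mean. The change of the RTD-1 effect from day 3 to day 5 was 1.96 for Scd (SE 1.45, limma adjusted p = 0.867), 0.48 for Fasn, 0.42 for Acaca, 0.07 for Acly and 0.48 for Srebf1. None passed the test, beside 0.00% of all genes (917 at an unadjusted p under 0.05). From day 1 to day 5 the change was 0.22 for Scd, and none of the 5 passed (0.00% of all genes, 627 at an unadjusted p under 0.05). Limma voom called 1 gene for the change from day 1 to day 5.

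The day 5 values were also compared within the replicate numbers 1 to 4 and 5 to 8, a split made after the data were seen and which the labels do not describe as a batch. No gene of the 5 passed the test of the difference between the sets. In replicates 1 to 4 Scd stood at 1532.5, 7510, 3.5 and 880.6 normalized reads after RTD-1 and at 22.9, 268.2, 74.6 and 24.2 after saline, with a difference of 2.97 (SE 1.43, limma adjusted p = 0.308). In replicates 5 to 8 it stood at 157.1, 17.0, 151.8 and 36.9 after RTD-1 and at 301.5, 87.1, 33.2 and 132.6 after saline, with a difference of -0.72 (SE 1.43, limma adjusted p = 0.942). For Fasn the differences were 0.93 in replicates 1 to 4 and -0.27 in replicates 5 to 8. The difference between the sets was 3.69 for Scd (SE 2.03, limma adjusted p = 0.319) and 1.20 for Fasn (SE 0.565, limma adjusted p = 0.252), and the test called 0.00% of all genes. The unadjusted limma p of that difference was 0.0755 for Scd and 0.0397 for Fasn. Within the sets the test also called 0.00% of genes on day 5. At an unadjusted p under 0.05, limma gave 2388 of the 13062 genes for the difference between the sets on day 5. It gave 2022 within replicates 1 to 4 and 751 within replicates 5 to 8. The cause was not tested. On day 3 the Scd difference was -0.14 in replicates 1 to 4 and -1.53 in replicates 5 to 8.

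Healthy rats given RTD-1 were compared with naive rats. The naive libraries used here are among those that chose the genes. On day 3 the differences from naive were 0.41 for Scd (interval -2.35 to 3.16), 0.65 for Fasn, 0.68 for Acaca (interval 0.16 to 1.20, limma adjusted p = 0.0758), 0.48 for Acly (limma adjusted p = 0.0846) and 0.28 for Srebf1. None of the 5 passed the test, beside 11.8% of genes called. With TMM factors the differences were 0.40 for Acaca (limma adjusted p = 0.370) and 0.20 for Acly (limma adjusted p = 0.490). With 1 library left out the limma adjusted p of Acaca ran from 0.0256 (without healthy day 3 replicate 5) to 0.344 (without naive replicate 4), and that of Acly from 0.0493 (without naive replicate 3) to 0.403 (without naive replicate 4).

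On day 5 Acly stood at 709.3, 715.2, 627.7, 673.4 and 549.9 normalized reads in healthy RTD-1 libraries, all above the highest naive library at 506.8. The share of all genes with such an upward separation was not counted, so nothing is read from it. As a percentage of reads in genes the groups overlapped, with Acly at 0.0244% to 0.0299% against 0.0187% to 0.0275% in naive. The fitted Acly difference was 0.58 (SE 0.188, limma adjusted p = 0.0296), so 1 of the 5 genes was called, beside 12.9% of genes called higher. The median gene differed by 0.30 on day 3 and 0.34 on day 5, and by 0.03 and 0.04 with TMM factors, with which the Acly difference was 0.27 (limma adjusted p = 0.319) and the call was lost. It was also lost without naive replicate 4 (limma adjusted p = 0.205) and without healthy day 5 replicate 1 (0.0597), 2 (0.0692) or 4 (0.0590). All 10 healthy RTD-1 libraries were deeper than the naive ones, so depth and treatment cannot be told apart here. The other differences on day 5 were 0.05 for Scd (interval -2.71 to 2.81), 0.07 for Fasn, 0.27 for Acaca and 0.07 for Srebf1, of which those of all 4 lay below 0 with TMM factors. Between healthy day 5 and day 3 the differences ran from -0.58 for Fasn to 0.11 for Acly and none passed the test (0.00% of all genes, 62 genes at an unadjusted p under 0.05, 0 with limma voom). The fit uses 1 estimate of the spread per gene over all groups, and the wide intervals of Scd in healthy rats include its spread among arthritic libraries.

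**Figure D4:**
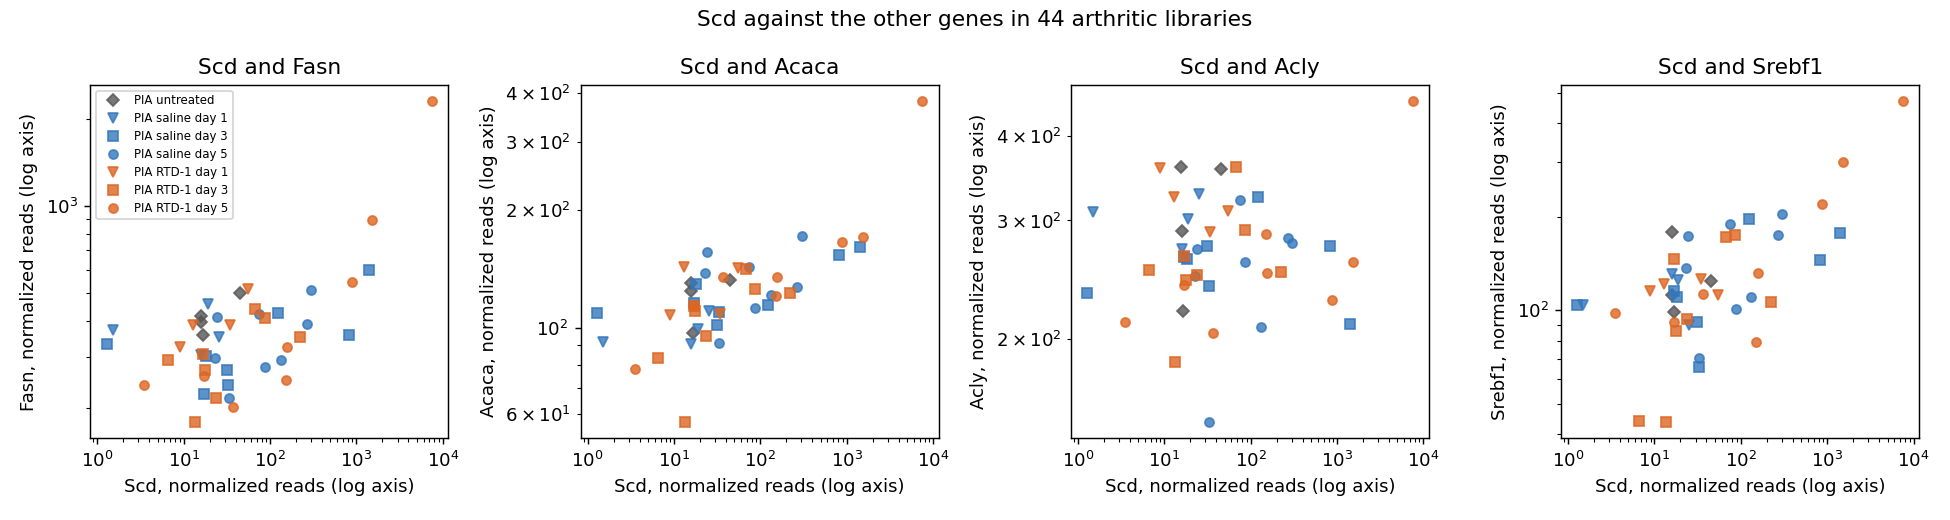
Normalized reads of Fasn, Acaca, Acly and Srebf1 against Scd (log axes) in the 44 arthritic libraries, with symbols for groups. The point at the upper right of each panel is PIA RTD-1 day 5 replicate 2, and the Acly panel shows the least tendency to rise with Scd.

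Among the 44 arthritic libraries the genes varied together to different degrees. Scd correlated across libraries with Acaca (Pearson r = 0.74, Spearman rho = 0.66), Srebf1 (r = 0.65, rho = 0.50) and Fasn (r = 0.64, rho = 0.43), and less with Acly (r = 0.14, rho = 0.05). After the group means were taken out, Scd had r = 0.70 with Acaca, 0.64 with Srebf1, 0.72 with Fasn and 0.37 with Acly. Without the 2 libraries farthest from the median of Scd, the r values before centring were 0.62 with Acaca, 0.48 with Srebf1, 0.41 with Fasn and -0.05 with Acly. By Pearson r, Fasn, Acaca and Srebf1 were the closest to each other. Acaca and Srebf1 had r = 0.82 (0.80 centred on group means, rho = 0.72). Fasn and Srebf1 had r = 0.81 (0.82 centred, rho = 0.77), and Fasn and Acaca r = 0.80 (0.85 centred, rho = 0.63). The order of these pairs thus depends on the centring. By Spearman rho, Fasn and Acaca lay below Scd and Acaca (rho = 0.66). Without the 2 libraries farthest from the median of the first-named gene, r was 0.71 for Acaca and Srebf1. It was also 0.71 for Fasn and Srebf1, and 0.64 for Fasn and Acaca. Acly stood at r = 0.59 with Fasn (0.61 centred, rho = 0.56) and 0.50 with Srebf1 (0.64 centred, rho = 0.41). With Acaca it stood at 0.47 (0.67 centred, rho = 0.26). Without the 2 libraries farthest from the median of 1 gene of the pair, r was 0.535 with Fasn, 0.33 with Srebf1 and 0.19 with Acaca. In the 14 healthy libraries Fasn and Acaca stayed close (r = 0.93, rho = 0.88). Scd and Srebf1 had r = 0.81 there (rho = 0.66), and r = 0.63 without the 2 healthy libraries farthest from the median of Scd. The remaining healthy pairs ran from r = 0.42 (Scd and Acly) to 0.66 (Acaca and Acly). Among them, Srebf1 had r = 0.59 with Fasn and 0.63 with Acaca. These pairs were less steady without the 2 healthy libraries farthest from the median of the first-named gene. They then ran from r = -0.24 (Acly and Srebf1) to 0.62 (Scd and Acly). Acaca and Acly had 0.255, Acaca and Srebf1 0.2545, Fasn and Srebf1 0.505 and Scd and Fasn 0.11. These values share library depth and are given as a description.

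Other genes with the most similar pattern over the 58 libraries are given by identifier, among the 8421 genes whose log2 value averaged 5 or more. ENSRNOG00000012181 correlated with the mean of the 5 standardized genes at r = 0.97 over all libraries and r = 0.79 within the arthritic ones. It fell from 3699 ± 990.2 (SD, n = 4) normalized reads in naive synovium to 445.8 ± 138.3 (SD, n = 4) in untreated PIA. ENSRNOG00000019372 followed, at r = 0.97 over all and r = 0.80 within the arthritic libraries, with 372.7 ± 104.9 and 45.9 ± 5.10 normalized reads. The most opposite patterns over all libraries were those of ENSRNOG00000019495 (r = -0.95, and -0.63 within the arthritic libraries) and ENSRNOG00000002548 (r = -0.95, and -0.46 within the arthritic libraries). The latter stood at 13.5 ± 11.2 normalized reads in naive synovium and at 13540 ± 7898 in untreated PIA.

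RefSeq lists close relatives of Scd (Scd2, Scd3, Scd4 and the pseudogene Scd-ps1) on the chromosome of Scd, and gives Scd as an older symbol of Scd2. The promoter of Scd was matched by its symbol alone. How reads matching more than one of them were counted is not given in the sources used here, so the Scd values may hold reads of a relative or lack shared ones.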

How the data were processed

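Synovial RNA of 58 libraries was sequenced, per the labels' protocols, as single reads of 75 nt from a stranded total RNA kit. The submitters' processing notes name HISAT and DESeq with no version, and for build, annotation and multiply matching reads the entry is: not given in the sources used here. Deposited values proved to be log2 values whose antilogs are multiples of a per-library step, 1 step for a read, and a gene with 0 reads carries 0.9 of a step. Dividing by the step gave whole reads for 100% of the values, within a relative tolerance of 0.001. The row without an identifier, 0.000384% to 0.0137% of reads, was left out. The factor ran from 1.71 to 17.5 megareads, and libraries with at least 10 megareads are called deeper, a limit set after seeing the data. Reads were scaled to the median factor of 5.75 megareads.

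Tested genes had 10 or more normalized reads in 4 or more libraries (13062), and all 5 genes passed, Scd with 10 or more in 53 libraries and the others in all 58. The test was limma 3.58.1 (R 4.3.3) on log2(normalized reads + 1), fitting the means of 10 groups together with trend and robust moderation, and two-sided Benjamini-Hochberg adjusted p under 0.05 over all genes tested. It was planned for normalized values and applied after undoing the logarithm. The script was tested on simulated data. The 5 genes, lists and tests were chosen with earlier results of these data known. Genes to be named were the 5, the largest changes in each list and the genes most alike in pattern. The reference paired 0 of 16879 identifiers with a symbol, so the pathway and marker lists and the levels relative to fat markers were not analysed here, symbols of the 5 come from the list that chose them, and at most 2 other genes per direction are given by identifier. Alternatives were pseudocounts of 0.5 and 8, filters, TMM factors, a replicate block, limma voom, only the groups compared, sets of replicates, leaving out deeper, shallow or single libraries. No 2 libraries of a group matched within sampling noise (lowest chi-square per degree of freedom 2.48). Figures were drawn with matplotlib 3.10.9.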

Additional observations from a re-analysis of the deposited data

Results flagged for a closer look

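A library was picked out here where its gap to the nearest other library of its group was large against the group's whole range on the log2 scale. Of 50 sets of a gene in a group, 4 held such a library, and chance gives about 1 in 20. Scd in PIA untreated replicate 4 was the highest of 4, with 45.08 normalized reads from 47 reads. Scd in healthy RTD-1 day 5 replicate 3 was the lowest of 5, with 13150 normalized reads. Acly in naive replicate 4 was the lowest of 4, with 306.2 normalized reads. Reads in genes of that library were 28.5% of its factor, against 30.9% to 41.6% in the other naive libraries. The rule was not applied to shares of reads in genes. Acly in PIA RTD-1 day 5 replicate 2 was the highest of 8, with 450.8 normalized reads.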

How the results depend on the processing

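The differences between PIA and healthy rats given RTD-1 kept their direction and their call for all 5 genes under every alternative run, with Scd between -10.42 and -9.48 on day 3 and between -8.05 and -6.52 on day 5. The extra fall of Scd over each other gene also kept its call with each library left out and with pseudocounts of 0.5 and 8. That test was run in the libraries that had already shown the fall. No gene of the 5 was called between RTD-1 and saline under any alternative. The number of genes called between RTD-1 and saline on day 3, 1 as reported, was 0 with a pseudocount of 8, with limma voom, with only the groups compared, in replicates 1 to 4 and without the 2 shallowest libraries, and 2 with TMM factors. It ran from 0 to 11 with 1 library left out, the 11 without saline replicate 3, and on day 1 from 0 to 1. For the change of effect from day 1 to day 5, limma voom called 1 gene, and from day 3 to day 5, no filter and TMM factors each called 1. Genes called between healthy RTD-1 and naive numbered 1546 on day 3 (1456 higher, 90 lower) and 1764 on day 5 (1684 higher, 80 lower). With TMM factors they numbered 708 (435 higher, 273 lower) and 645 (418 higher, 227 lower). With 1 library left out they ran from 624 (without naive replicate 4) to 2425 (without naive replicate 3) and from 807 to 2763 (without the same libraries). The cause was not tested.

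Replicate numbers are shared between groups. Deviations of same-numbered libraries from their group means correlated at between -0.363 and 0.277 in the pairs of groups compared. Libraries with different numbers were not compared in this way, so whether same-numbered libraries share more than a number cannot be told. With a replicate block, 2 genes were called between RTD-1 and saline on day 3, and Acaca between healthy RTD-1 day 3 and naive had a difference of 0.71 (limma adjusted p = 0.0433), as with limma voom (0.68, limma adjusted p = 0.0426).

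Small differences that were not called changed sign, and the cause was not tested. Between RTD-1 and saline on day 1 TMM factors gave -0.053 for Fasn, -0.086 for Acly and -0.074 for Srebf1, and leaving out 1 library gave -0.0085 to 0.22 for Fasn and -0.010 to 0.17 for Srebf1. On day 3 Acly was 0.0055 with TMM factors, 0.021 with limma voom, 0.0003 without the deeper saline libraries, 0.12 in replicates 1 to 4, 0.082 without the 2 shallowest libraries and -0.071 to 0.066 with 1 library left out, and Srebf1 was 0.066 without the 2 shallowest. On day 5 replicates 5 to 8 gave -0.72 for Scd, -0.27 for Fasn and -0.14 for Srebf1, and replicates 1 to 4 gave -0.026 for Acly. With 1 library left out on day 5 Fasn ran from -0.015 to 0.49, Acaca from -0.031 to 0.29, Acly from -0.048 to 0.12 and Srebf1 from -0.054 to 0.31, with each lowest value in the absence of RTD-1 replicate 2. Over the mean of days Srebf1 was 0.039 with limma voom, 0.0070 without the deeper saline libraries, 0.11 without the 2 shallowest and -0.089 to 0.040 with 1 library left out, and Fasn -0.015 to 0.15. For the change of effect from day 1 to day 5 TMM factors gave 0.037 for Acaca and 0.20 for Acly, and leaving out the deeper saline libraries gave -0.19 for Scd and 0.035 for Acly. With 1 library left out that change ran from -0.56 to 0.98 for Scd, -0.13 to 0.37 for Fasn, -0.13 to 0.040 for Acly and -0.15 to 0.22 for Srebf1. From day 3 to day 5 the Acly change was -0.016 without the 2 shallowest libraries and -0.045 to 0.14 with 1 library left out. Between healthy RTD-1 day 5 and naive TMM factors gave -0.26 for Scd, -0.24 for Fasn, -0.041 for Acaca and -0.24 for Srebf1. Leaving out 1 library gave -0.098 to 0.31 for Scd, -0.17 to 0.35 for Fasn and -0.13 to 0.22 for Srebf1. Depth limits Scd most, since arthritic libraries held as few as 1 read of it.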
